A study of Mus musculus with 10 samples.

Results

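The oligoadenylate synthetase family was followed through 6 listed mouse genes, Oas1a, Oas1g, Oas2, Oas3, Oasl1 and Oasl2, out of 32285 genes in the deposited count tables. The genes were taken by name, with earlier results of these data known, and all 6 were present. Synthetases of this family bind double-stranded RNA, a sign of viral infection, and join ATP into short oligoadenylates, the second messengers of an antiviral response. Most of the family is induced by type I interferon through the receptor Ifnar1-Ifnar2 and the kinases Jak1 and Tyk2. Some members have lost the enzyme activity and act through other contacts.

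The samples were livers of mice with colorectal cancer metastases, profiled by droplet single-cell RNA sequencing of the RNA 3′ ends. IFNa + aCTLA4 (liver 22) had the same interferon vector plus a blocking agent against the T cell checkpoint CTLA-4. IFNa (livers 18 and 23) had a lentiviral vector that delivers IFNa, a type I interferon, while Control (livers 11 and 25) had a control lentiviral vector. The labels give no strain, age, dose or time, do not say which cells the vector was expressed in, and give no mouse for each liver. The p-values below therefore reflect the spread between these samples alone, which may be technical. Every fit with the combination assumes that its 1 library varied like the others.

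Of 28039 deposited cells 27771 were kept, and the marker gates assigned 19159 to exactly 1 cell type. Gated cells made up 63.9% of the combination library, 68.0% to 74.2% of the IFNa libraries and 71.9% to 76.2% of the Control libraries. Library totals ran from 10464216 UMIs in Control 25, which holds 863 cells, to 69856071 UMIs in the combination. Pairs of libraries shared 4 to 83 cell barcodes, at most 2.20% of the smaller library. A T cell receptor beta chain was found in 73.9% of gated CD8 T cells, 85.4% of CD4 T cells and 83.0% of regulatory T cells, 23.2% of gamma-delta T cells and 9.13% of plasmacytoid dendritic cells, against 0.669% of classical monocytes. The median cell of the macrophage gate also reached the classical monocyte marker minimum, and the cDC1 and mature dendritic gates reached that of cDC2. Those markers alone therefore do not sharply part these myeloid neighbours, whose gates also bar or limit other genes. The CD8 T, CD4 T and regulatory T gates share 1 list of T cell markers, which gamma-delta T cells also meet by their Cd3 genes. This check therefore says nothing on how well the T cell types are parted, which rests on Cd8a, Cd8b1, Cd4, Foxp3 and the gamma-delta genes. The median gamma-delta T cell reached the marker minimum of NK and ILC1 cells, whose gate bars Cd3d, Cd3e and Cd3g. The results below use 12 types that had at least 10 cells in each Control and IFNa library. UMI counts were summed per library and type and are given as CPM, each gene's counts scaled to the total of that sum. They are not set per length. Levels are compared within a gene and not between genes, and the members' sums and shares only between libraries and types.

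All 6 genes lie on chromosome 5 (GRCm38). Oas2 (ENSMUSG00000032690, 120730333 to 120749853), Oas3 (120753098 to 120777661), Oas1g (120876142 to 120887613) and Oas1a (ENSMUSG00000052776, 120896256 to 120907521) follow each other on the minus strand. Oasl2 (114896936 to 114912234) and Oasl1 (114923240 to 114937915) are neighbours on the plus strand. Oas1a and Oas1g are close paralogs, so reads shared between them may be split or lost in counting, and their separate levels are uncertain to that extent.

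The members' promoter windows ran from 250 bases before to 50 after the RefSeq start (GRCm38.p6). They were searched on both strands for the core of the interferon-stimulated response element, a pair of GAAA separated by any 2 bases (GAAANNGAAA). A window was found for 5 of the 6 members (Oas2 is named only), and 3 of these 5 held a match. Of all 32851 windows 3.44% held one, and of 27025 gene symbols with a window 3.99% did. The stretches around the matches are shown 5′ to 3′ on the gene's strand, with the matched bases in capitals, for Oas1a (chr5:120907510-120907565, minus strand), Oas1g (chr5:120887596-120887651, minus strand) and Oas3 (chr5:120777705-120777754, minus strand).
Oas1a: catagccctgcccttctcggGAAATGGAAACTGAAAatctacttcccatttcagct
Oas1g: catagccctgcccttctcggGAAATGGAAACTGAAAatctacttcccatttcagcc
Oas3: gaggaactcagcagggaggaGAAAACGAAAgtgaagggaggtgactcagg
The stretches of Oas1a and Oas1g hold the same capitals, 2 overlapping matches that begin 20 and 14 bases before the start of Oas1a and 18 and 12 bases before that of Oas1g. The match of Oas3 begins 75 bases before its start. In the windows of Oasl1 and Oasl2 these letters were absent. A match describes letters in the window and shows no binding.

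With IFNa the family rose in monocytes, macrophages and conventional dendritic cells as a whole. All 6 members passed the test (edgeR quasi-likelihood, Benjamini-Hochberg adjusted p under 0.05 within a cell type) in classical monocytes, where 5.76% of all tested genes rose, in non-classical monocytes (1.4%; none passed without IFNa 18 or without IFNa 23), in macrophages (2.24%), in cDC1, the cross-presenting dendritic cells (1.12%), and in cDC2 (1.26%). Over the 12 types 48 of 71 tested pairs of member and type rose and none fell, against 1.32% of all tested pairs of gene and type that rose. Because the members were chosen with earlier results known, this comparison describes the data and does not test the family as a set. In macrophages, where none of the members fell, 0.95% of all tested genes did. In the sum of the 6 members, classical monocytes held 2550 CPM in the combination, 2162 ± 16.6 CPM with IFNa (SD, n = 2) and 463 ± 103 CPM in Control (SD, n = 2). Macrophages held 2033 CPM, 1614 ± 21.4 CPM and 484 ± 2.80 CPM in the same order of groups. The cDC1 sums were 1072 CPM in the combination, 982 ± 70.4 CPM with IFNa and 110 ± 44.5 CPM in Control, the largest ratio of IFNa over Control (8.92) among these 5 myeloid types.

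**Figure D1:**
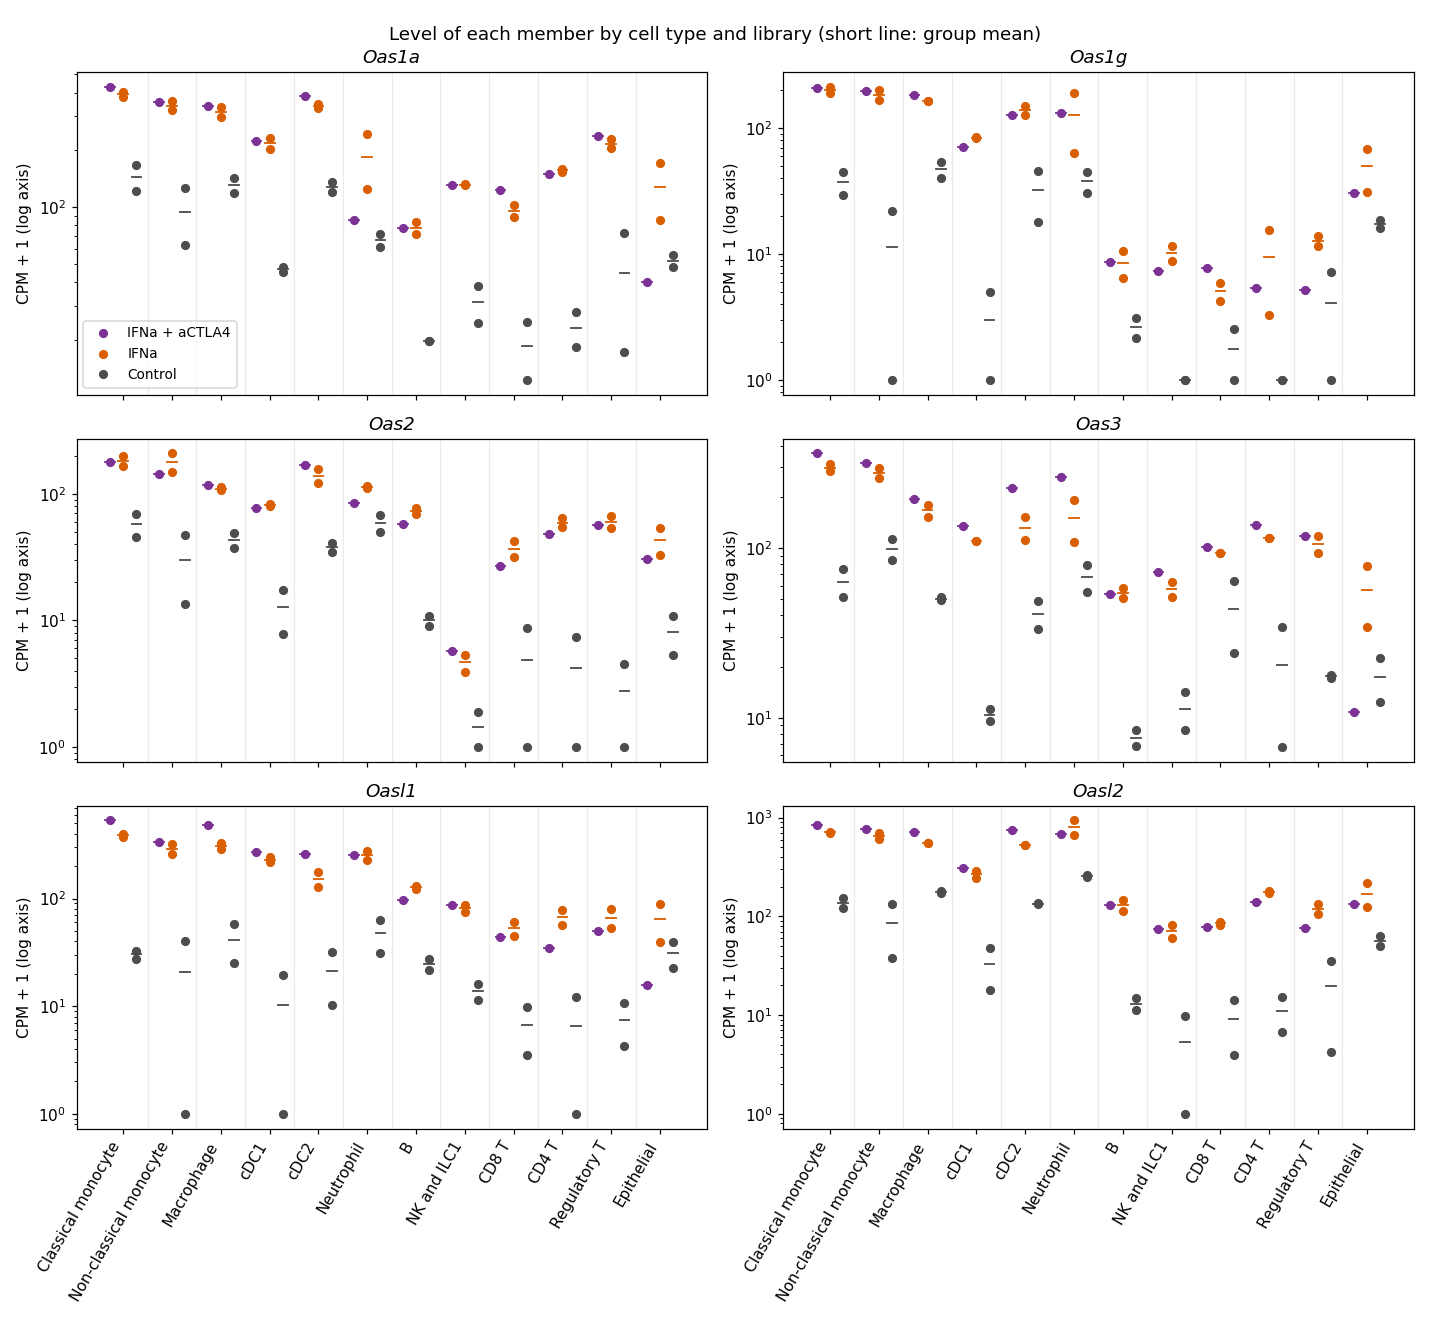
Level of each member (CPM + 1, log axis) in the 12 cell types with at least 10 cells in each Control and IFNa library. Each point is 1 library, short lines are group means, and within a type IFNa + aCTLA4 (n = 1) stands left, IFNa (n = 2) in the middle and Control (n = 2) right. In all panels the IFNa libraries of the 5 monocyte, macrophage and conventional dendritic types lie above both Control libraries, and Oas1g in lymphocytes and Oas2 in NK and ILC1 cells stay low in every group.

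Oas1a encodes an active synthetase. In classical monocytes it was at 429 CPM in the combination, 380 and 403 CPM in the IFNa libraries and 120 and 165 CPM in the Control libraries. Every treated library lay above both Control libraries, a log2 fold change of 1.48 ± 0.18 for IFNa (SE, edgeR adjusted p = 0.0017). Its level with IFNa was highest in classical monocytes (391 ± 16.2 CPM, SD, n = 2) and lowest in B cells (76.6 ± 7.67 CPM). Non-classical monocytes, cDC2 and macrophages (316 to 341 CPM on average) overlapped their neighbours in that order, as did cDC1, regulatory T cells, neutrophils and CD4 T cells (155 to 215 CPM). Oas1a passed in 9 of 12 types, with fold changes over the 12 types from 1.04 in epithelial cells, which did not pass, to 2.73 in CD8 T cells (2.03 to 3.03 without 1 library).

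Oas1g, the paralog next to it and also an active synthetase, passed in the 5 myeloid types above and in none of the lymphoid types. In cDC1 it was at 69.2 CPM in the combination, 83.1 and 81.8 CPM with IFNa, and 3.95 and 0 CPM in Control, where 0 UMIs of Control 25 allow up to 10.3 CPM. The groups did not overlap, and the IFNa fold change was 4.65 ± 0.40 on the log2 scale (SE, edgeR adjusted p = 0.00126). It rests on 6 Control UMIs, all in Control 11: it was 4.38 without Control 25, while without Control 11 no Control UMI is left and the fitted 9.70 is no measure of size. With IFNa its mean was 164 to 200 CPM in both monocyte types and macrophages, but 4.04 to 11.7 CPM in B, NK and ILC1, and the T cell types. None of these 5 lymphoid types passed. In NK and ILC1 cells 18 and 25 UMIs were counted with IFNa and 8 in the combination, against none in either Control library, which makes the IFNa level at least 4.33-fold higher (3 counts over the Control group). In CD4 T cells 2 and 15 UMIs were counted with IFNa and none in Control, and only IFNa 23 (14.5 CPM) exceeded the 3.73 CPM that 0 UMIs over the Control group allow.

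**Figure D2:**
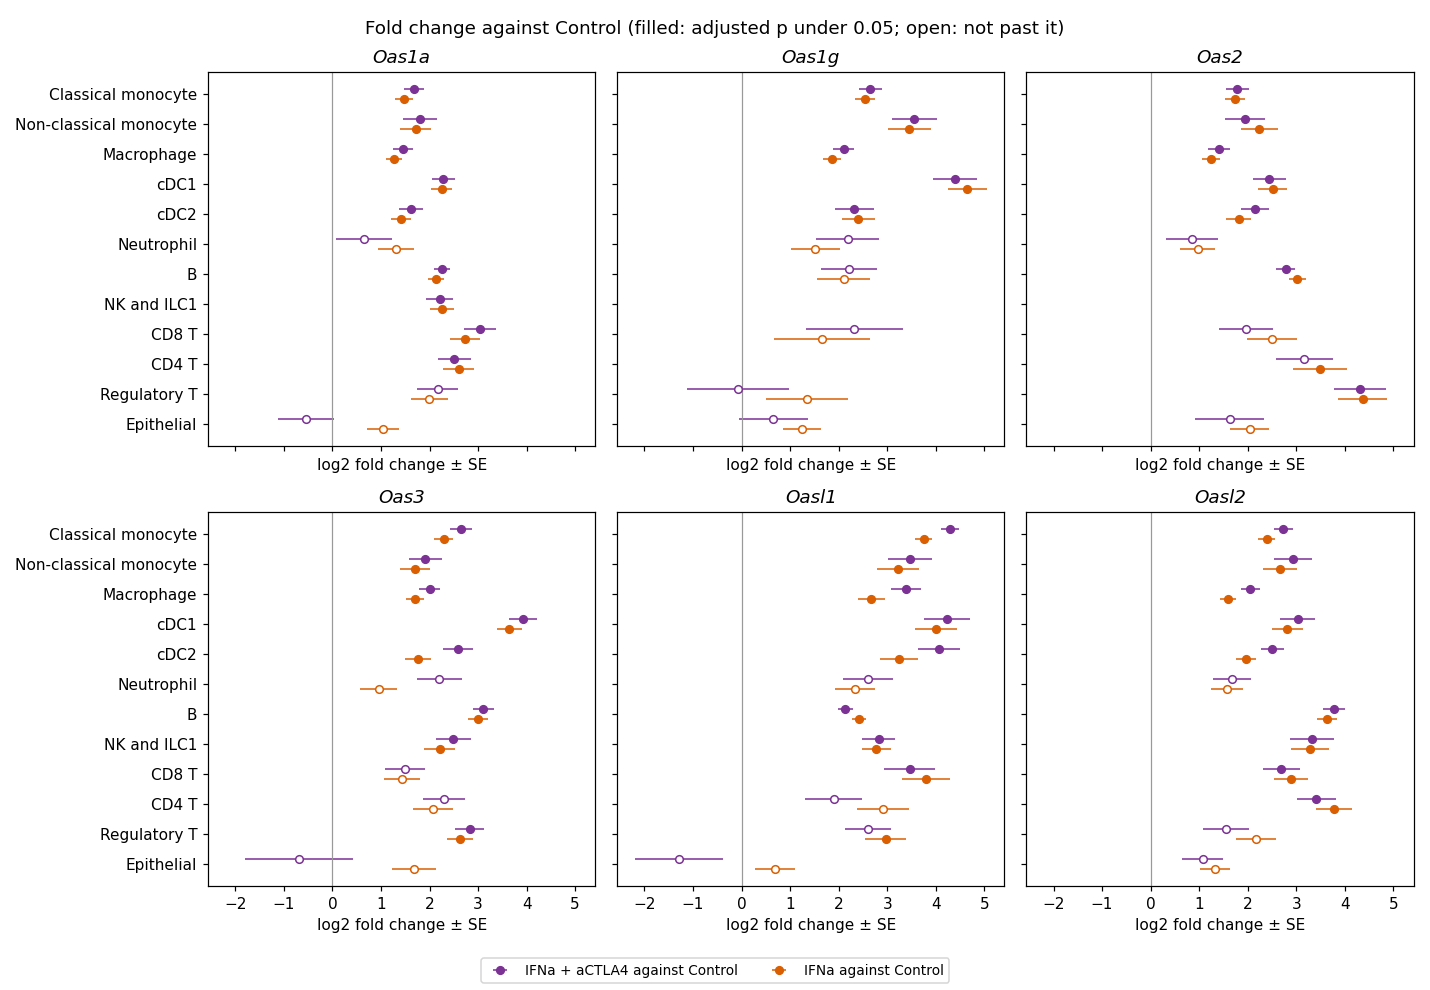
Log2 fold change against Control (x axis, bars ± SE) of each member in the 12 cell types, with IFNa + aCTLA4 above IFNa. Filled points passed an edgeR adjusted p of 0.05 and open points did not; members with no UMI in Control are left out. Filled points fill the 5 upper myeloid rows in all panels, and all points of neutrophils and epithelial cells are open.

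Oas2, a synthetase with a duplicated catalytic unit, was nearly absent from NK and ILC1 cells. They held 6 UMIs (4.78 CPM) in the combination, 10 and 7 UMIs (4.37 and 2.93 CPM) with IFNa and 1 and 0 UMIs in Control, too few to enter the test. The IFNa libraries gave 41 and 30.6 CPM in CD8 T cells and 75.9 and 68.8 CPM in B cells, so every other lymphoid type lay above NK and ILC1 cells in both. Lyz2, a lysozyme gene of myeloid cells, stood in NK and ILC1 cells at 0.107% of its classical monocyte level in the combination, 0.450% and 0.422% with IFNa, and 3.51% and 0.198% in Control. Oas2 stood there at 2.70% of its classical monocyte level in the combination, 2.21% and 1.77% with IFNa, and 1.96% and 0% in Control. It lay above Lyz2 in the treated libraries. In Control, 1 and 0 UMIs of Oas2 are too few to order it against Lyz2. The part of myeloid RNA in these low levels was not tested. In regulatory T cells Oas2 was at 55.6 CPM in the combination, 65.8 and 52.9 CPM with IFNa, and 3.55 and 0 CPM in Control. That rise of 4.37 ± 0.50 on the log2 scale (SE, edgeR adjusted p = 0.00787) was lost without IFNa 18 (edgeR adjusted p = 0.0648) and rests on 4 Control UMIs, all in Control 11.

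Oas3, the longest synthetase of the family, had its largest rise among the 12 types in cDC1. It was at 133 CPM in the combination, 109 and 110 CPM with IFNa, and 8.56 and 10.3 CPM in Control, a log2 fold change of 3.64 ± 0.26 for IFNa (SE, edgeR adjusted p = 0.00114). The smallest of its IFNa fold changes in a myeloid type that passed were 1.70 ± 0.31 in non-classical monocytes and 1.70 ± 0.18 in macrophages (SE, edgeR adjusted p = 0.00428 and 0.000566). Non-classical monocytes held 83.4 and 111 CPM of Oas3 in Control, from 40 UMIs and 9 UMIs. In CD8 T cells the IFNa libraries were at 92.6 and 92.7 CPM and the Control libraries at 23 and 62.5 CPM, and the difference did not pass (edgeR adjusted p = 0.477).

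Oasl1 lacks synthetase activity, carries ubiquitin-like domains and in mice restrains translation of Irf7. In classical monocytes it was at 530 CPM in the combination, 372 and 398 CPM with IFNa, and 26.7 and 31.7 CPM in Control. The lowest treated library was more than 10 times the highest Control library, and the IFNa fold change of 3.75 ± 0.17 on the log2 scale (SE, edgeR adjusted p = 3.07e-05) was the largest of the members there. The mean Control level was highest in neutrophils (46.4 CPM), macrophages and epithelial cells and did not part these types beyond their spread. With IFNa the order ran from classical monocytes (385 ± 18.1 CPM) to CD8 T cells (51.8 ± 10.8 CPM), and NK and ILC1, CD4 T, regulatory T, epithelial and CD8 T cells overlapped their neighbours.

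Oasl2 carries ubiquitin-like domains as well, but its mouse protein keeps synthetase activity. In cDC2 it was at 753 CPM in the combination, 533 CPM in both IFNa libraries and 134 and 132 CPM in Control. With IFNa its mean ran from 803 ± 187 CPM in neutrophils and 708 ± 7.0 CPM in classical monocytes, which overlap, to 69.8 ± 15.4 CPM in NK and ILC1 cells. Its largest IFNa rise in a type that passed was in CD4 T cells, which held 138 CPM in the combination, 180 and 172 CPM with IFNa and 14.3 and 5.73 CPM in Control. That is 3.78 ± 0.37 on the log2 scale (SE, edgeR adjusted p = 0.00191), with values of 3.54 without Control 25 and 4.94 without Control 11. These values rest on few Control UMIs. All 6 members together gave 58 UMIs in CD4 T cells of Control 11 and 5 in the 27 CD4 T cells of Control 25.

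Among lymphocytes B cells and NK cells had the most calls. In B cells 5 of 6 members rose with IFNa (1.11% of all tested genes rose), all but Oas1g (2.10 ± 0.55, edgeR adjusted p = 0.169), and in NK and ILC1 cells 4 of 5 tested members rose (0.906%). The calls in T cells were 3 members in CD8 T cells (Oas1a, Oasl1 and Oasl2; 0.154% of genes), 3 in CD4 T cells (Oas1a, Oas2 and Oasl2; 0.279%) and 3 in regulatory T cells (Oas2, Oas3 and Oasl1; 0.209%). These calls changed with single libraries. In CD8 T cells no member passed without Control 11, Control 25, IFNa 18 or IFNa 23, and 1 passed without the combination. In CD4 T cells 5 passed without any 1 of these 4 libraries and 2 without the combination. In regulatory T cells 5 passed without either Control library and none without IFNa 18. The sum of the members in CD8 T cells was 375 CPM in the combination, 365 and 361 CPM with IFNa, and 59.3 and 98.2 CPM in Control, so the groups did not overlap.

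No member passed in neutrophils (0.116% of genes rose) or epithelial cells (0% of genes rose), in edgeR. At an unadjusted p under 0.05 these were 6 and 5 of 6 members, and DESeq2 called 2 and 0. The neutrophil gate held 15 cells in the combination, 110 and 22 with IFNa, and 271 and 37 in Control. Oasl2 was at 682 CPM in the combination, 671 and 936 CPM with IFNa, and 263 and 249 CPM in neutrophils of Control, a log2 fold change of 1.58 ± 0.33 for IFNa (SE, edgeR adjusted p = 0.0994). With cell types taken from clusters all 6 members rose in neutrophils. The epithelial gate does not part tumour from bile duct cells. In epithelial cells the summed members were at 256 CPM in the combination (24 cells), 341 and 670 CPM with IFNa, and 194 and 158 CPM in Control. The 2 IFNa libraries differed there by more than the lower one differed from Control.

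Of the types with 1 Control library of at least 10 cells, plasmacytoid dendritic cells had all 6 members up with IFNa (2.23% of genes), of which DESeq2 did not call Oas1g and Oas2 and the gate with 1 more marker did not call Oas2, and gamma-delta T cells 3 of 5 (0.68%). Mature dendritic cells had none of 6 (0% of genes; 6 at an unadjusted p under 0.05, and 2 called by DESeq2), nor had endothelial cells (0%; 6 at an unadjusted p under 0.05, and 2 called by DESeq2). In plasmacytoid dendritic cells Oasl1 gave 105 UMIs in the combination, 44 and 66 with IFNa and none in Control 11, at least 21.0-fold higher with IFNa, and Oas3 was at least 14.1-fold higher. The single Control library is assumed to vary like the others in these fits.

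Shares of cells with a UMI moved the same way at equal depth. Cells with at least 3000 UMIs were thinned to 3000, and shallower cells were left out of the thinned shares. A UMI of any member was then found in 99.0% of classical monocytes of the combination, 98.8% and 98.1% with IFNa, and 58.1% and 64.6% in Control. In CD8 T cells the shares were 55.1% in the combination, 59.5% and 51.3% with IFNa, and 12.5% and 18.8% in Control. In regulatory T cells they were 74.0%, then 73.0% and 75.0%, against 25.2% and 6.67% in the same order of libraries. Unthinned, the mean shares were 76.2% with IFNa and 35.2% in Control for CD8 T cells. The counts cannot tell a cell that makes little of a gene from one that holds free RNA, and no type here is known to lack these genes.

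The make-up of the family differed in both monocyte types, macrophages, cDC1 and cDC2, in part on few Control UMIs. In each of these types the Oasl1 share was higher and the Oas1a share lower in every treated library than in both Control libraries. In non-classical monocytes Control 25 holds 18 UMIs of the members. Its exact 95% intervals, 0% to 18.5% for Oasl1 and 9.69% to 53.5% for Oas1a, cover every treated share there. In cDC2 the Oasl1 interval of Control 25, 3.69% to 12.7%, covers both IFNa shares (11.7% and 9.27%). The cDC1 shares of Control 25 rest on 23 UMIs. Oasl1 supplied 20.8% of the members' UMIs in classical monocytes of the combination, 17.1% and 18.5% with IFNa, and 6.84% (exact 95% binomial interval 6.23 to 7.49) and 5.92% (4.71 to 7.32) in Control. Oas1a supplied 16.8% in the combination, 17.5% and 18.7% with IFNa, and 30.9% and 30.7% in Control. Oasl2 supplied 33.3% in the combination, 32.3% and 33.2% with IFNa, and 30.6% and 28.6% in Control. None of these shares overlapped between treated and Control libraries, and the gap was smallest for Oasl2. In B cells Oasl1 supplied 22.7% in the combination, 26.0% and 28.3% with IFNa, and 35.6% and 30.5% in Control, while Oasl2 supplied 31.2%, then 29.2% and 26.3%, against 13.6% and 20.3%. Oas1a supplied 18.3%, then 16.4% and 16.5%, against 24.8% and 27.1% there, whereas in CD8 T cells its treated and Control shares overlapped. The intervals of Control 25, which rest on 59 UMIs, ran from 19.2% to 43.9% for Oasl1 and from 11% to 32.8% for Oasl2 and cover the shares of the treated B cell libraries. Those of Control 11, which rest on 250 UMIs, ran from 29.7% to 41.9% for Oasl1 and from 9.61% to 18.5% for Oasl2. They cover none of the treated shares of these members. With 2 libraries a group no test of the shares was made, and intervals cover counting error only.

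**Figure D3:**
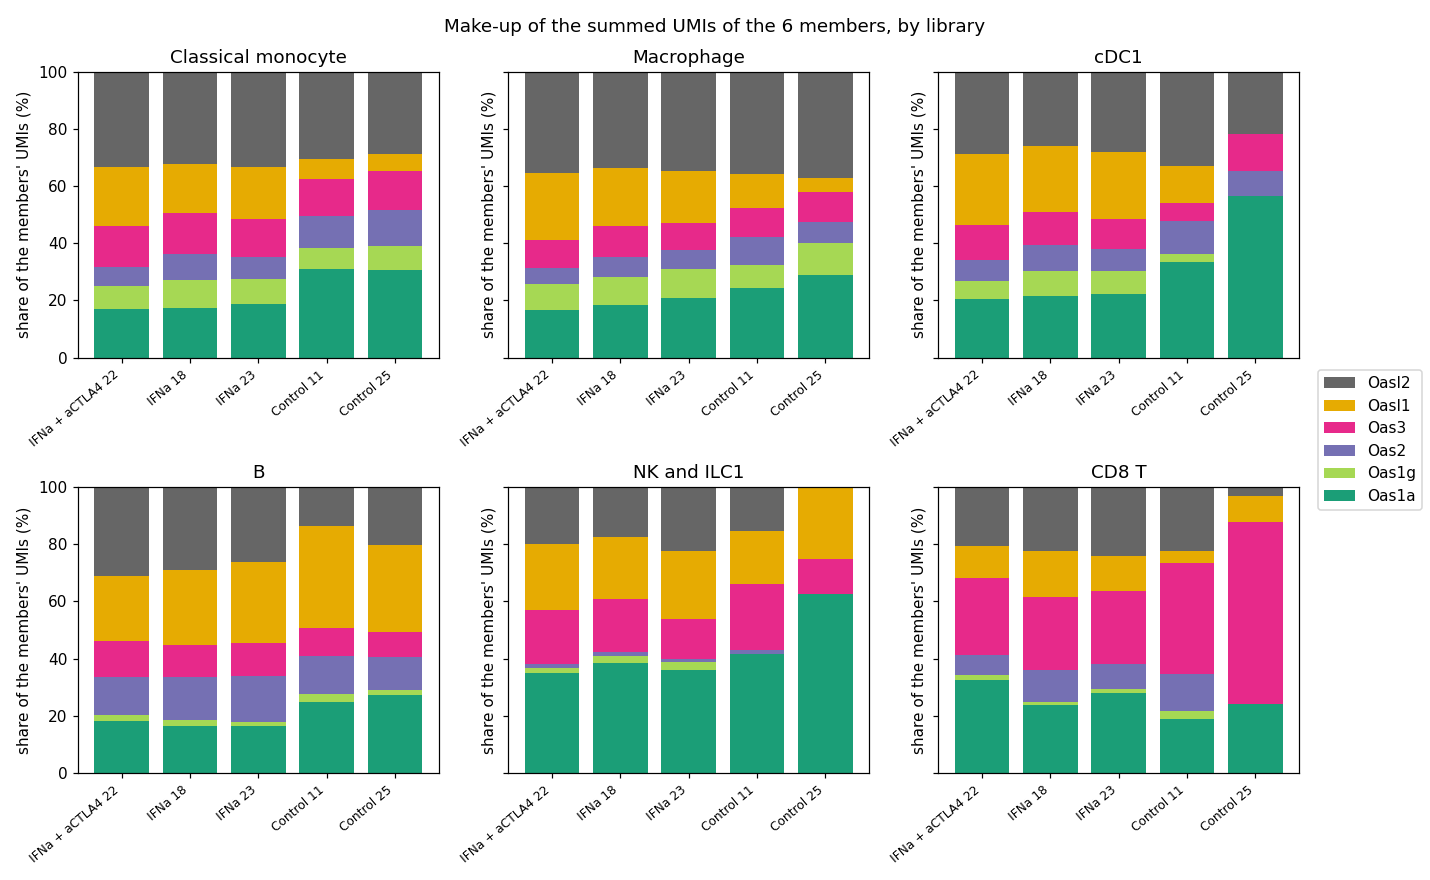
Share of each member (y axis, percent) in the summed UMIs of the 6 members, per library, in 6 cell types, with IFNa + aCTLA4 left, IFNa in the middle and Control right. The Oasl1 part of classical monocytes, macrophages and cDC1 is wider and the Oas1a part narrower in treated libraries. Control 25 rests on 16 to 59 UMIs in NK and ILC1, cDC1, CD8 T and B cells.

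Adding CTLA-4 blockade gave no member past the threshold against IFNa alone. Of 71 pairs over the 12 types edgeR called 0 (0.648% of all tested pairs passed), 10 had an unadjusted p under 0.05, and DESeq2 called 0. In classical monocytes Oasl1 was at 530 CPM in the combination against 372 and 398 CPM with IFNa, 0.54 ± 0.18 on the log2 scale (SE, edgeR adjusted p = 0.291). In cDC2 Oas3 was at 223 CPM against 150 and 111 CPM (0.82 ± 0.27, edgeR adjusted p = 0.657). Lower values stood in epithelial cells, such as Oas1a at 39.4 CPM from 8 UMIs against 84.7 and 169 CPM (-1.58 ± 0.55, edgeR adjusted p = 0.667), where the median of all genes was -0.13. Against Control, with which the IFNa comparison shares its libraries, 46 of 71 pairs rose in the combination (2.01% of all tested pairs), 6 of 6 in each of the 5 myeloid types named first, of which the 6 in non-classical monocytes were all lost without IFNa 18 and without IFNa 23. Its Oasl1 fold change in classical monocytes was 4.29 ± 0.19 (SE, edgeR adjusted p = 1.69e-05), beside 3.75 ± 0.17 for IFNa.

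The difference of the IFNa effect between cell types was tested for each member in each of 11 types against CD8 T cells, with the library as a term. None of 66 pairs passed in edgeR (115 of 159181 over all genes, 0.0722%), and 16 had an unadjusted p under 0.05. The lowest adjusted p belonged to Oas1a in classical monocytes, whose IFNa effect was lower than in CD8 T cells by -1.36 ± 0.44 on the log2 scale (SE, edgeR adjusted p = 0.194). Differences in size between types therefore stand as values and not as tested differences.

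Abce1, an ATP-binding protein of ribosome recycling, and Pde12 and Akap7, which in human and mouse cells degrade oligoadenylates, passed in none of the 12 types. In classical monocytes with IFNa Abce1 was at -0.25 ± 0.16, Pde12 at 0.23 ± 0.17 and Akap7 at -0.06 ± 0.17 on the log2 scale (SE). Of the 6 other Oas genes listed, Oas1c was the only gene with enough counts to be tested, and it rose in classical monocytes (1.99 ± 0.27, edgeR adjusted p = 0.00334) and macrophages (2.02 ± 0.39, edgeR adjusted p = 0.0203).

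Upstream of the family, Irf7, a factor that amplifies interferon production, rose with IFNa, and no gene of the receptor passed. Irf7 rose by 3.08 ± 0.24 on the log2 scale in classical monocytes (SE, edgeR adjusted p = 0.000158) and 3.54 ± 0.18 in B cells (0.000222). Ifnar1, Ifnar2, Jak1 and Tyk2 passed in none of the 12 types. Of 11 other nucleic acid sensors 9 rose in classical monocytes, 7 in macrophages, 5 in cDC1, 6 in B cells, 6 of 10 tested in NK and ILC1 cells, 5 in cDC2, 4 in non-classical monocytes and 2 of 10 each in CD8 T and regulatory T cells. In edgeR none of 9 rose in neutrophils, none of 9 in CD4 T cells and none of 11 in epithelial cells, where 3, 6 and 4 sensors had an unadjusted p under 0.05. The share of all genes that rose was 5.76% in classical monocytes and 2.24% or less in the other types. Among them Ifih1, the long double-stranded RNA sensor MDA5, rose by 2.20 ± 0.18 in classical monocytes, and Eif2ak2, the RNA-activated kinase PKR, by 1.52 ± 0.14 (SE, edgeR adjusted p = 0.000193 and 0.000424). In the listed sensors the median log2 fold change in classical monocytes was 1.52, beside 2.34 for the 6 members and -0.0045 for all genes tested.

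Over 78 sums of a library and type, the genes most like each member in log2(CPM + 1), by Pearson's r among 9107 genes, were other interferon-induced genes or members. Oas1a was most like Ifih1 (r = 0.898), Oas1g most like Oasl2 (0.889), Oas2 most like Oasl2 (0.867) and Oas3 most like Isg15 (0.836). Oasl1 was most like Irf7 (0.798) and Oasl2 most like Isg15 (0.893). Between members r ran from 0.639 (Oas1g and Oas3) to 0.889. The sums share libraries and treatments, so these values describe the data and carry no test.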

How the data were processed

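The deposited tables hold raw UMI counts per gene and cell barcode, and V(D)J contig tables with UMI counts per contig, as written by Cell Ranger 7.0.1 in the hands of the authors; the submitters' processing notes name the build mm10. A cell entered with 200 or more genes and a mitochondrial UMI share up to 15%. A cell was typed by counts of marker genes, and cells that passed more than 1 gate were left out, which also removes many doublets. As exceptions, the Kupffer gate took precedence over the macrophage gate, and the mature dendritic gate over the cDC1 gate. Counts were summed per library and type (at least 10 cells) and tested with edgeR 4.0.16 (filterByExpr, TMM, quasi-likelihood test, Benjamini-Hochberg adjustment within a type) in 1 fit of the 3 groups; the SE is the fold change over the root of F. The difference between types was fitted with library, type and type by group as terms. Alternatives used DESeq2 1.42.0, other filters and gates, clusters (scanpy 1.11.5) and left-out libraries. Shares have exact 95% binomial intervals, and 0 UMIs were read as up to 3; both cover counting error only. The text names the members, genes of their 4 fixed lists of related genes (2 of these genes are not reported here) and the 3 genes most like each member. Members and lists were chosen with earlier results of these data known. Gene positions are from GENCODE M21.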

Additional observations from a re-analysis of the deposited data

How the results depend on the processing

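Over the 12 types, the members called higher with IFNa than in Control numbered 48 in edgeR, 49 in DESeq2, 61 of 72 with no filter on low counts, 51 with 1 more marker in the gate, 46 of 57 with types from clusters and 50 with scored doublets left out, and 40 to 49 without 1 library; 35 of the 48 calls held in every fit that left out 1 library. For the combination against Control the main count was 46, and 44 to 50 without 1 library. By type, the IFNa counts without 1 library ran from 0 to 6 in non-classical monocytes, 0 to 2 in neutrophils, 0 to 1 in CD8 T cells, 2 to 5 in CD4 T cells and 0 to 5 in regulatory T cells. In neutrophils (0) the count was 2 in DESeq2, with no filter and with doublets left out, 1 with the stricter gate and 6 with clusters. With no filter it was 5 in CD8 T, CD4 T and regulatory T cells and 3 in epithelial cells, and in regulatory T cells also 5 with the stricter gate and with clusters. The share of Oas1a in classical monocytes of Control moved to 31.1% with the stricter gate (30.8%). In cells with at least 2000 UMIs, thinned to 2000, any member was found in 96.3% of classical monocytes with IFNa and 50.5% in Control (89.4% unthinned). In CD8 T cells the shares were 45.3% with IFNa (76.2% unthinned) and 11.1% in Control (35.2% unthinned). The unthinned shares include the shallower cells. Among values of the combination against Control that passed in no fit named here, Oas1g in regulatory T cells turned from -0.07 to 0.17 in DESeq2, 0.91 with the stricter gate and between -0.53 and 5.09 without 1 library (5.09 without Control 11). In epithelial cells Oasl1 turned from -1.29 to 0.33 with clusters, Oas3 from -0.68 to 0.82 with clusters, and Oas1a from -0.54 to 0.62 with clusters and 0.080 with the stricter gate. The cause of these changes was not tested. No paired analysis was possible because the groups share no liver number. Control 25 holds the fewest cells, 863, so its sums rest on few UMIs in the small types.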

Other observations

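Cell types with few cells gave values outside the 12 types. In endothelial cells Oasl2 was at 467 and 594 CPM with IFNa (15 and 10 cells) and 22.5 CPM in Control 11 (13 cells, 5 UMIs). In mature dendritic cells, with 1 Control library, Oasl2 was at 630 CPM in the combination, 276 and 388 CPM with IFNa and 68.9 CPM in Control 11. The combination against IFNa called none of the 6 there, with log2 fold changes from 0.45 for Oas1g to 0.92 ± 0.27 for Oas3 (SE, edgeR adjusted p = 0.533). In gamma-delta T cells Oasl1 was at 80.7 CPM in the combination, 69.1 and 90.6 CPM with IFNa and 62.1 CPM in Control 11 from 9 UMIs, a log2 fold change of 0.35 ± 0.53 for IFNa (SE, edgeR adjusted p = 0.896).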
